A study of Mus musculus with 10 samples.

Results

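The 9 genes described here make, sense or destroy prostaglandin E2 (PGE2): Pla2g4a, Ptgs2, Ptgs1, Ptges, Ptges2, Ptges3, Ptger2, Ptger4 and Hpgd. Members were taken by gene symbol, and every probe set annotated to 1 of these symbols alone was read on all arrays. This gave 12 probe sets for 7 of the 9 genes, out of 34945 probe sets with a single symbol for 18193 genes. Ptges3 lies on 2 probe sets that also carry the symbol of a pseudogene, and Ptgs1 on none with a single symbol, so neither is analysed here. Ptgs2, Ptges, Ptges2 and Pla2g4a reached the level at which genes were tested, a mean log2 value of 3.17 or a signal of about 6.6, and Ptger2, Ptger4 and Hpgd did not.

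The arrays (Affymetrix Mouse430 2.0) came from Lewis lung carcinoma (LLC) cells, a transplantable lung tumour line of C57BL/6 mice. TDAG8 cells stably express the proton-sensing receptor TDAG8, encoded by Gpr65, and control cells carry the vector without it. For TDAG8 cells and for control cells alike there was 1 array at pH 6.4 for 4 h, 1 at pH 6.4 for 12 h, 1 at pH 7.4 for 4 h, 1 at pH 7.4 for 12 h and 1 before treatment, 10 arrays in all. All cells had first spent 12 h without serum in albumin-containing medium at pH 7.4, and each array received a pool of RNA from 4 separate cultures. Whether either cell line is a single clone is not given in the sources used here.

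PGE2 is made in 3 enzymatic steps. A phospholipase A2 frees arachidonic acid from membranes, a cyclooxygenase turns it into prostaglandin H2, and a terminal synthase turns that into PGE2. The inducible cyclooxygenase, encoded by Ptgs2, is usually the step that changes fastest in stimulated cells, and it is abundant in many tumours. PGE2 then acts on receptors at the cell surface, of which EP2 and EP4 raise cyclic AMP through Gs, the same second messenger that TDAG8 raises in acid. The enzyme encoded by Hpgd inactivates it.

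Promoter sequence is shown for Ptgs2, the 1 gene of the set that passed the pH test, and for Pla2g4a and Ptges, measured genes of the steps before and after it whose gene-level tests did not pass. Pla2g4a is the neighbour of Ptgs2 on mouse chromosome 1, with 138.7 kb between the annotated genes. The genes span chr1:150100031-150108234 for Ptgs2, chr1:149829618-149961290 for Pla2g4a and chr2:30889471-30931020 for Ptges. All sequences are from RefSeq on build GRCm38.p6, cover 250 bases before the annotated start and the first 30 after it, and read 5′ to 3′ on the strand of the gene. The windows are chr1:150099781-150100060 on the plus strand for Ptgs2, chr1:149961261-149961540 on the minus strand for Pla2g4a and chr2:30903268-30903547 on the minus strand for Ptges. Read on the minus strand, the Ptges gene span begins at base 30931020, so the Ptges start used here lies inside that span. The sequence at the outer end of Ptges was not searched. Capitals mark matches to a searched motif.
Ptgs2: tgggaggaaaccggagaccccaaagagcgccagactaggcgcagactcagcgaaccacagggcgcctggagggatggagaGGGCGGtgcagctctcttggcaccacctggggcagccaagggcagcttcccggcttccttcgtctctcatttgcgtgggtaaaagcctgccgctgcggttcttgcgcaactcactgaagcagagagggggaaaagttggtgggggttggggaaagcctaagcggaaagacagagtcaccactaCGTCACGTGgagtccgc
Pla2g4a: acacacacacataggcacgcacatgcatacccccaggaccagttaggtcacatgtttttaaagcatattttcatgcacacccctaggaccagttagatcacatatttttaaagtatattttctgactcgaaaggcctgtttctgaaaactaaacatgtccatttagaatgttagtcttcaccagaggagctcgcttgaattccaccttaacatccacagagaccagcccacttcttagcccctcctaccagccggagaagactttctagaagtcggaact
Ptges: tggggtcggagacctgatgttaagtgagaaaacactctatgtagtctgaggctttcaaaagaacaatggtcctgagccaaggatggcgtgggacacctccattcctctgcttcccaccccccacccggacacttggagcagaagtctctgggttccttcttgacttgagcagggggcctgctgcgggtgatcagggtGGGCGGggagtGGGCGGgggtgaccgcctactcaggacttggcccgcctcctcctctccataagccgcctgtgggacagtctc

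The searched motifs, on both strands, were the cyclic AMP response element TGACGTCA and its short form CGTCA, an NF-kB motif written GGGANTNNC, the AP-1 motif TGANTCA, the E-box CACGTG, the NR4A motif AAAGGTCA, the GC box GGGCGG and the TATA box TATAAA. The full cyclic AMP motif contains the short one. The Ptgs2 window held CGTCA at bases 14 to 18 after the annotated start, overlapped by CACGTG at bases 17 to 22, and a GC box at bases -170 to -165. An element of this kind, a short cyclic AMP motif joined to an E-box, is known from the mouse Ptgs2 promoter. Positions count from the annotated start, and whether these cells start transcription there was not tested. The Ptges window held 2 GC boxes, at bases -53 to -48 and -42 to -37, and the Pla2g4a window shown held none of these letters. A second annotated Pla2g4a start had a TATA box match at bases -200 to -195. Among 32851 windows of the same length, the short cyclic AMP motif occurred in 19.9%, the E-box in 6.79% and the GC box in 34.7%. The full cyclic AMP motif occurred in 1.74%, the NF-kB motif in 13.05%, the AP-1 motif in 7.46%, the NR4A motif in 1.45% and the TATA box in 13.1%. Of the other members, Ptges2 also had the E-box, at bases -77 to -72, and Ptges3 the short cyclic AMP motif, at bases 12 to 16. GC boxes also occurred in the windows of Ptges3, Ptger4 and Hpgd and a TATA box match in that of Hpgd. The windows of Ptgs1 and Ptger2 held none of the motifs, and the Ptgs1 window, like that of Ptges, lies inside the span of its gene. These matches are descriptions of letters and not of bound sites.

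As a check of the labels, the 1 Gpr65 probe set gave at most 5.3 in TDAG8 cells and at most 4.9 in control cells, below the tested level, so it does not check which cells carry TDAG8. Of 6 epithelial markers 4 reached the tested level, with Krt8 at 1242 to 2648 on all arrays, while Cdh1 read at most 5.3. Krt18, of the same list, read 171 and 194 at pH 6.4 in TDAG8 cells, against 62.3 and 63.0 at pH 7.4, while control cells gave 42.1 and 21.6 at pH 6.4, against 35.5 and 36.6 at pH 7.4. Of 4 lung epithelial markers 1 reached it, Sftpb at 13.1 to 28.6, and the lung lineage factor gene Nkx2-1 read at most 9.2. The leukocyte gene Ptprc read at most 6.3 and the endothelial gene Pecam1 at most 6.6. Of 5 leukocyte markers on the array 2 reached the tested level, Cd68 at 7.2 to 20.8 and Csf1r at 24.0 to 35.2. The summed signal of all 5 was 43.5 to 59.3 in TDAG8 cells and 39.9 to 60.2 in control cells. Of 4 endothelial markers 2 reached it, Cdh5 at 6.3 to 12.6 and Kdr at 1.9 to 14.5. The sums of all 4 were 24.4 to 33.0 in TDAG8 cells and 15.7 to 24.8 in control cells. Of 5 fibroblast markers 3 reached the tested level. The summed signal of all 5 was 916 to 2942 in TDAG8 cells and 735 to 2099 in control cells. The acid arrays had sums of 735 to 1006 and the pH 7.4 arrays 1487 to 2942, with Pdgfra passing as lower at pH 6.4 (log2 -1.70, adjusted p = 0.0144 by limma). Dcn did not pass for pH (-0.89, adjusted p = 0.129 by limma) and was higher in TDAG8 cells (0.45, adjusted p = 0.0457), and Col1a2 differed with pH by 0.42 without passing (adjusted p = 0.252). The part of these markers in the results below was not tested. In whole-culture RNA, fewer cells of a type and less RNA per cell cannot be told apart.

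Ptgs2 was the 1 member whose gene-level test of pH passed, and its acid arrays stood far above the rest. On the probe set with the higher mean, 1417262_at, TDAG8 cells read 3092 at 4 h and 3693 at 12 h in pH 6.4, against 305 at 4 h and 379 at 12 h in pH 7.4. Control cells read 897 and 1510 in pH 6.4, against 313 and 466 in pH 7.4 at the same times. Before treatment the signal was 357 in TDAG8 cells and 277 in control cells. All 4 acid arrays thus lay above all 6 others, and the TDAG8 acid arrays lay above the control acid arrays.

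On the second Ptgs2 probe set, 1417263_at, the 4 acid arrays again lay above the 6 others and the TDAG8 acid arrays above the control acid arrays. TDAG8 cells read 2192 at 4 h and 2039 at 12 h in pH 6.4, against 87.0 and 125 in pH 7.4. Control cells read 642 and 781 in pH 6.4, against 101.3 and 173 in pH 7.4. Before treatment it read 120 in TDAG8 cells and 116 in control cells. The log2 values of the 2 probe sets had a Pearson correlation of 0.985 over the 10 arrays, a description of arrays that share their lines and media.

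**Figure D1:**
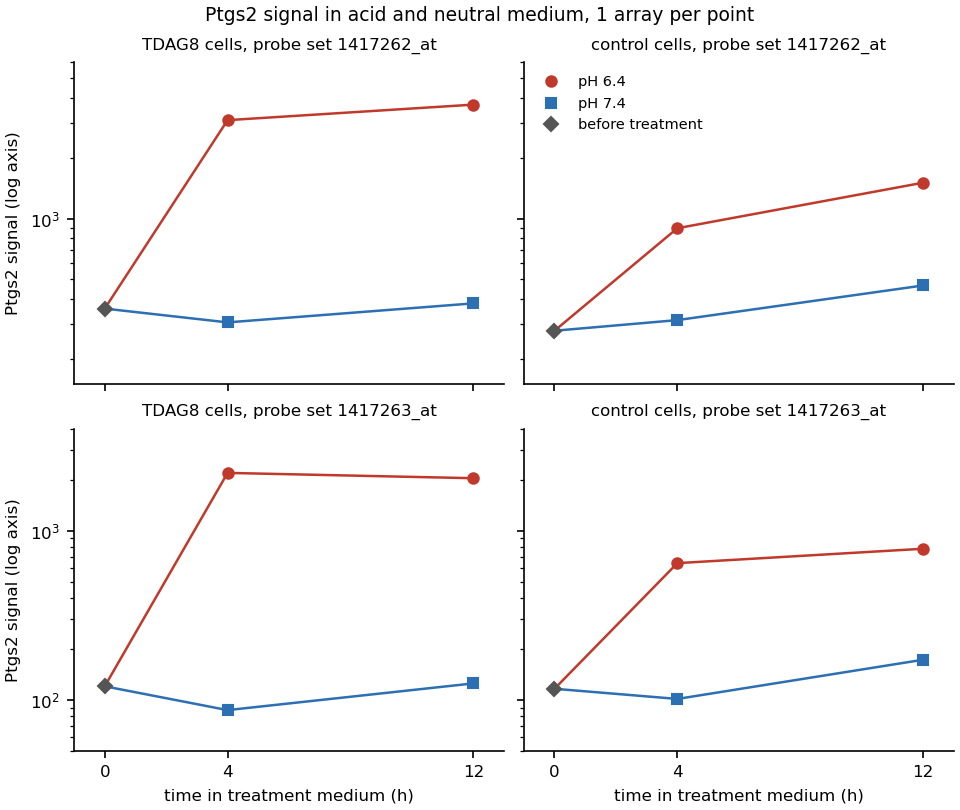
Deposited signal of both Ptgs2 probe sets (rows, log axes) against hours in treatment medium, with TDAG8 cells on the left and control cells on the right; each point is 1 array. On 1417262_at the pH 6.4 points sit at 3092 and 3693 in TDAG8 cells and at 897 and 1510 in control cells, while the pH 7.4 points of both lines stay between 305 and 466.

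In the comparison of pH 6.4 with pH 7.4 over 4 matched pairs of arrays, Ptgs2 rose by 2.43 on the log2 scale, or 5.41-fold (SE 0.39, adjusted p = 0.0257 by limma, higher in 4 of 4 pairs). It had the 13th highest difference among the 12161 genes tested. Of the 4 members tested, 1 rose and 0 fell, where 4.47% of all genes tested rose and 5.56% fell. These were 544 genes that rose and 676 that fell, against 365 and 739 with values as deposited and 297 and 619 with arrays centred on the median. The call was lost without the TDAG8 pair at 4 h (2.17, adjusted p = 0.0711), without the TDAG8 pair at 12 h (2.11, adjusted p = 0.0916) and without the control pair at 12 h (2.69, adjusted p = 0.0859). With no filter on dim genes the value was the same and the adjusted p was 0.0626.

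Taken line by line, the pH difference of Ptgs2 was 3.23 at 4 h and 3.41 at 12 h in TDAG8 cells, and 1.44 and 1.65 in control cells, on the log2 scale after quantile normalisation. It was the 1 member of 4 past 1 on this scale at each of these times. These were the 11th and 7th highest differences of all genes tested in TDAG8 cells, and the 169th and 165th in control cells. At or past 1 on this scale, with 1 array on each side and no test, lay 3.37% and 5.81% of genes as higher in TDAG8 cells, and 3.26% and 5.95% in control cells. The pH difference fitted within each cell line was 3.32 (SE 0.20) in TDAG8 cells and 1.55 (SE 0.20) in control cells. Neither passed by limma (adjusted p = 0.111 and adjusted p = 0.151), and with 2 residual degrees of freedom 0 of 12161 genes did in either line. Unadjusted p-values under 0.05 were found for 1901 genes in TDAG8 cells and 1922 in control cells.

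The study's stated aim was to find genes regulated by TDAG8, and the comparison closest to it is the difference between the pH responses of the lines. For Ptgs2 the response of TDAG8 cells exceeded that of control cells by 1.79 at 4 h and by 1.76 at 12 h, so the 2 times differed by far less than the size of the difference. The fitted value was 1.78 (SE 0.28, 3.43-fold), with an unadjusted p of 0.00154 and an adjusted p of 0.999861 by limma. It was the 36th highest of 12161 genes. None of the 4 members passed, as 0% of all genes did, and 339 genes had an unadjusted p under 0.05. The second probe set gave 1.93 at 4 h and 1.98 at 12 h (1.96, SE 0.34). The epithelial marker Krt18 had a difference of 1.71 between the pH responses (SE 0.36, adjusted p = 0.999861 by limma), and that of Krt8 was 0.44 (SE 0.26). The other tested epithelial markers gave 0.40 for Epcam (SE 0.39) and -0.31 for Ocln (SE 0.48), so the list did not share 1 direction. The part of such markers in the Ptgs2 difference was not tested.

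Seen as line differences, Ptgs2 was higher in TDAG8 cells at pH 6.4, by 1.76 at 4 h and 1.45 at 12 h. At pH 7.4 it differed by -0.03 and -0.31, and before treatment by 0.34. On the second probe set the values were 1.68 and 1.51 at pH 6.4, -0.25 and -0.47 at pH 7.4, and -0.02 before treatment. At or past 1 as higher in TDAG8 cells lay 2.84% of genes at pH 6.4 for 4 h and 3.36% for 12 h. Over all 5 matched pairs the line difference of Ptgs2 was 0.64 (SE 0.33, adjusted p = 0.331 by limma), which did not pass. It was 0.36 without the pair at pH 6.4 for 4 h. None of the 4 members passed, where 0.674% of all genes were higher and 0.526% lower in TDAG8 cells (82 and 64 genes, against 74 and 35 with values as deposited).

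**Figure D2:**
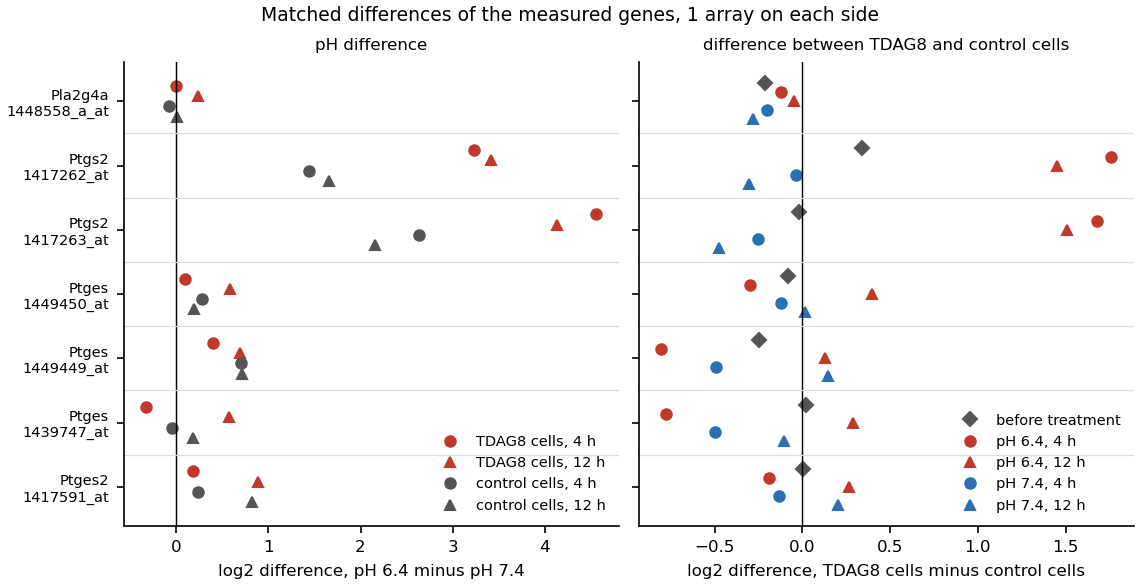
Log2 differences after quantile normalisation for the 7 probe sets at the tested level, pH 6.4 minus pH 7.4 on the left and TDAG8 minus control cells on the right; each point compares 1 array with 1 array. Both Ptgs2 probe sets have their highest pH differences in TDAG8 cells, and their line differences lie at 1.45 or above at pH 6.4 and at or below -0.03 at pH 7.4.

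Over time, Ptgs2 followed different courses in the 2 media. In TDAG8 cells at pH 6.4 it stood 3.02 above its level before treatment at 4 h and 3.51 above it at 12 h. In control cells at pH 6.4 these values were 1.60 and 2.40. At pH 7.4 the signal in TDAG8 cells differed from that before treatment by -0.21 at 4 h and 0.09 at 12 h, and that in control cells by 0.16 and 0.74. Over 4 pairs the 12 h arrays exceeded the 4 h arrays by 0.54 (SE 0.13, unadjusted p = 0.00589, adjusted p = 0.422 by limma, higher in 4 of 4 pairs). This did not pass, nor did any of 12161 genes (0%), of which 1420 had an unadjusted p under 0.05. On the second probe set, for TDAG8 cells in pH 6.4, the 12 h array was 0.11 above the 4 h array after normalisation, although its deposited signal was the lower of the pair.

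The probe sets of Ptgs2 did not scale alike. The deposited signal of 1417262_at divided by that of 1417263_at was 1.41 and 1.81 at pH 6.4 in TDAG8 cells and 1.40 and 1.93 at pH 6.4 in control cells. On the 6 other arrays it was 2.38 to 3.51, with no overlap. The pH difference was accordingly 3.37 (SE 0.43, adjusted p = 0.0149 by limma) on 1417263_at and 2.43 (SE 0.39, adjusted p = 0.0223) on 1417262_at when every probe set was tested as its own feature. The cause of the unequal change was not tested.

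Pla2g4a, which encodes the cytosolic phospholipase A2 that releases arachidonic acid, spanned 0.54 on the log2 scale over the 10 arrays, against 3.85 for Ptgs2. TDAG8 cells read 689 and 866 at pH 6.4 (4 h and 12 h), 666 and 728 at pH 7.4, and 619 before treatment. Control cells read 757 and 926 at pH 6.4, 770 and 877 at pH 7.4, and 722 before treatment. The acid and neutral arrays overlapped, and within each cell line both 12 h arrays lay above both 4 h arrays and the array before treatment.

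By limma the pH difference of Pla2g4a was 0.04 (SE 0.12, adjusted p = 0.847). The line difference was -0.17 (SE 0.06, adjusted p = 0.195), lower in TDAG8 cells in 5 of 5 pairs without passing. The time difference was 0.26 (SE 0.11, adjusted p = 0.422), with 12 h above 4 h in 4 of 4 pairs.

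Ptges encodes microsomal PGE synthase-1, the inducible terminal synthase usually coupled to the Ptgs2 product. Its probe set with the highest mean, 1449450_at, read 65.8 at 4 h and 108 at 12 h for TDAG8 cells in pH 6.4, 68.6 and 72.7 at pH 7.4, and 91.3 before treatment. It read 81.0 and 76.5 at pH 6.4 in control cells, 72.4 and 72.6 at pH 7.4, and 91.8 before treatment. The TDAG8 array at pH 6.4 for 12 h was the highest, and the acid and neutral arrays overlapped. The pH difference was 0.29 (SE 0.13, adjusted p = 0.191 by limma) and did not pass. It was 0.18 with values as deposited and 0.19 without the TDAG8 pair at 12 h.

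A second Ptges probe set, 1449449_at, differed more with pH. Its signal was 43.4 and 78.9 at pH 6.4 in TDAG8 cells, against 35.7 and 50.1 at pH 7.4. Control cells gave 75.3 and 67.9 at pH 6.4, against 48.8 and 45.1 at pH 7.4. The arrays before treatment read 48.3 in TDAG8 cells and 54.0 in control cells. At each matched time the acid array was the higher, with overlap across times in TDAG8 cells and none in control cells. Tested as its own feature among 22854 probe sets, it rose by 0.63 (SE 0.13, adjusted p = 0.0371 by limma, higher in 4 of 4 pairs). Of all probe sets tested this way, 5.57% rose and 5.54% fell.

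The third Ptges probe set, 1439747_at, gave no such separation. TDAG8 cells read 18.9 and 53.1 at pH 6.4, 26.0 and 37.6 at pH 7.4, and 51.6 before treatment. Control cells read 33.8 and 40.3 at pH 6.4, 34.9 and 40.6 at pH 7.4, and 47.1 before treatment. In both cell lines all treated arrays but 1, the TDAG8 array at pH 6.4 for 12 h, lay below the array before treatment. The log2 values of the 3 Ptges probe sets correlated at 0.509 to 0.748 over the 10 arrays, so they disagree more than those of Ptgs2, and the pH call of Ptges depends on the probe set.

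Ptges2 encodes the membrane-associated synthase microsomal PGE synthase-2 and lies at chr2:32395890-32402740. Its signal in TDAG8 cells was 83.1 at 4 h and 142 at 12 h in pH 6.4, against 82.4 and 76.4 at pH 7.4. Control cells gave 94.3 and 112 at pH 6.4, against 87.7 and 67.2 at pH 7.4. Before treatment the signal was 88.5 in TDAG8 cells and 83.3 in control cells. The 2 acid arrays at 12 h were the highest of all 10. At 4 h the acid array of control cells came next, and that of TDAG8 cells lay among the neutral and untreated arrays.

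The pH difference of Ptges2 was 0.89 in TDAG8 cells and 0.82 in control cells at 12 h, and 0.18 and 0.24 at 4 h. Over the 4 pairs it was 0.53 (SE 0.17, adjusted p = 0.104 by limma), higher in 4 of 4 pairs without passing. The interaction with line was 0.00 (SE 0.39, adjusted p = 0.999861), against 1.78 for Ptgs2. Whether the pH difference itself changed with time was not tested.

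**Figure D3:**
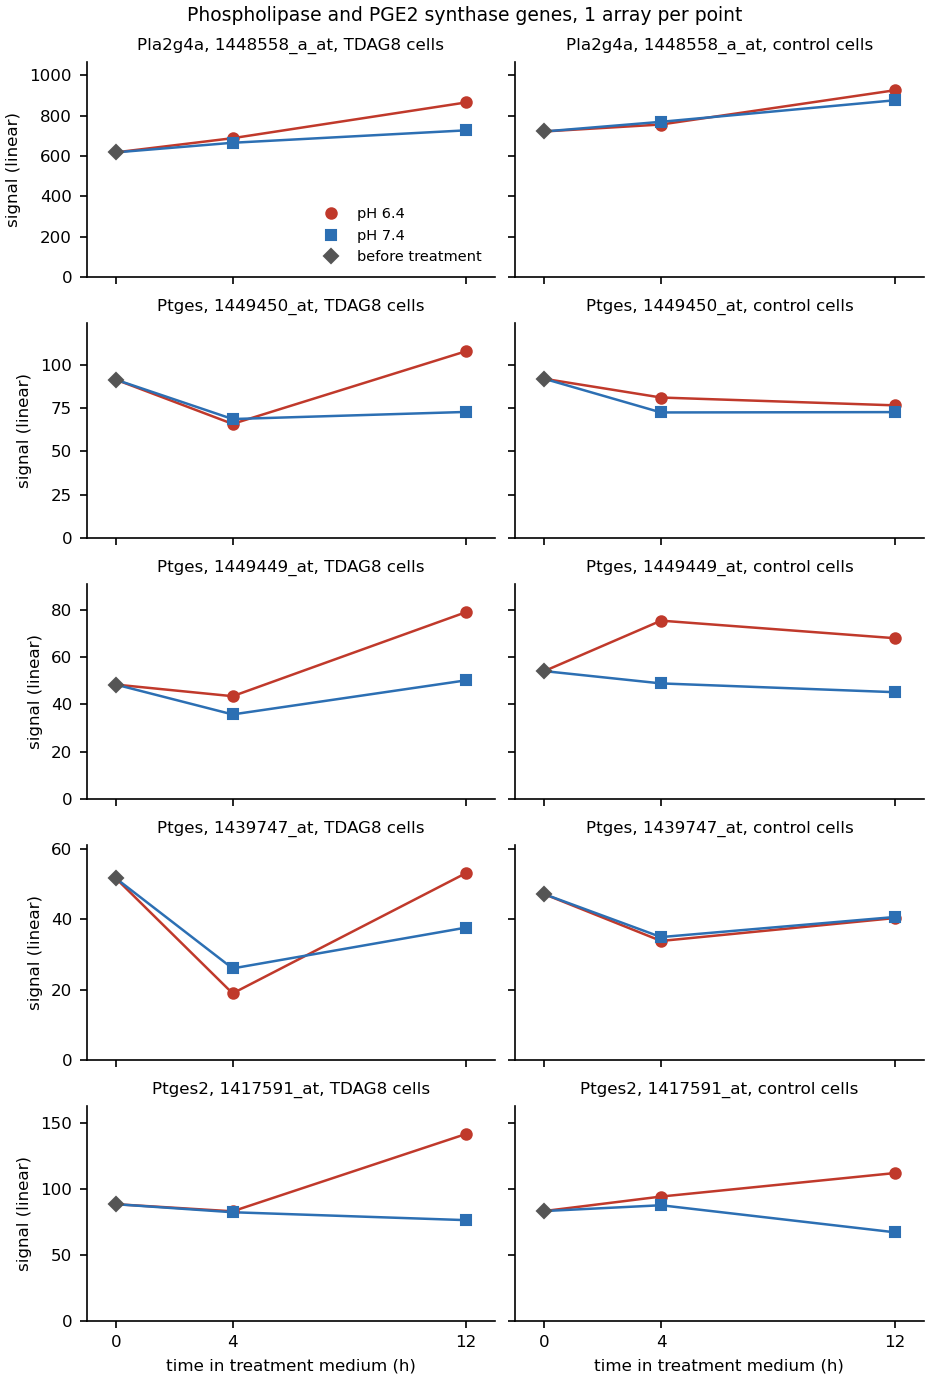
Deposited signal (linear axes from 0) of Pla2g4a, the 3 Ptges probe sets and Ptges2 against hours in treatment medium, TDAG8 cells on the left and control cells on the right, 1 array per point. Pla2g4a stays between 619 and 926 in both media, and the Ptges2 acid points leave the neutral ones at 12 h, at 142 and 112 against 76.4 and 67.2.

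The genes of the Gs-coupled PGE2 receptors EP2 and EP4 stayed below a signal of 6.6 on every array. Ptger2 (chr14:44988111-45003820), which encodes EP2, read 0.4 to 5.6 in TDAG8 cells and 0.2 to 3.5 in control cells. Ptger4 (chr15:5233399-5244187), which encodes EP4, read 1.1 to 6.1 in TDAG8 cells and 0.4 to 2.5 in control cells on 1424208_at. On its other probe set it read 0.2 to 3.1 and 0.1 to 2.2 in the same order of lines. The highest signal on these 3 probe sets was 6.1, so no fold change is given and no order of the groups is read. The genes of the other PGE2 receptors, EP1 and EP3, come from the list of other prostanoid receptors and did not reach the tested level either. Ptger1 read 3.0 to 6.6 in TDAG8 cells and 0.9 to 6.5 in control cells, and Ptger3 read 1.4 to 6.1 in TDAG8 cells and 1.4 to 4.1 in control cells.

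Hpgd (chr8:56294552-56321046), whose product is the dehydrogenase that inactivates PGE2, was likewise low. It read 2.2 to 10.8 in TDAG8 cells and 3.0 to 4.4 in control cells on 1419905_s_at, and 1.0 to 7.1 and 0.3 to 3.6 on 1419906_at. A total of 3 values reached 6.6, on 3 different arrays of TDAG8 cells: 6.8 at pH 6.4 for 12 h and 10.8 at pH 7.4 for 4 h on the first probe set, and 7.1 at pH 6.4 for 4 h on the second. The log2 values of the 2 probe sets had a correlation of -0.07, so they gave no common pattern.

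**Figure D4:**
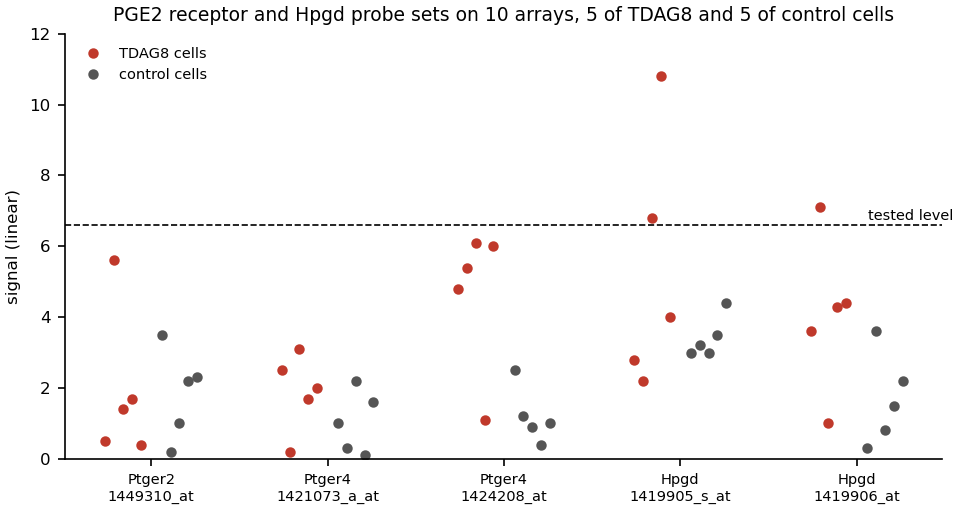
Deposited signal of the 5 probe sets of Ptger2, Ptger4 and Hpgd on all 10 arrays, TDAG8 cells left of control cells, with the tested level of 6.6 as a dashed line. All Ptger2 and Ptger4 points lie below the line, and 3 Hpgd points lie above it, at 6.8, 10.8 and 7.1.

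Beyond the members, 41 further genes of arachidonic acid metabolism were read in 5 lists, of which 39 had a single-symbol probe set and 27 reached the tested level. Between pH 6.4 and pH 7.4, 0 rose and 2 fell, where 4.47% and 5.56% of all genes did, and between the lines 1 was higher and 0 lower, where 0.674% and 0.526% were. For the interaction and for time 0 of 27 passed, as 0% of all genes did. The 2 genes that fell with pH were Ptgir, a receptor gene, and Abcc4, a transporter gene. From 2 of 27 genes no pattern along the pathway is read.

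Of 4 tested prostanoid receptors, 1 fell and 0 rose at pH 6.4. Ptgir, the gene of the Gs-coupled prostacyclin receptor, read 26.6 and 41.1 at pH 6.4 in TDAG8 cells, against 94.0 and 117 at pH 7.4. Control cells gave 21.6 and 17.3 at pH 6.4, against 43.0 and 43.6 at pH 7.4. Before treatment it read 88.7 in TDAG8 cells and 52.0 in control cells. Every acid array lay below every other array. It fell by 1.25 on the log2 scale (SE 0.16, adjusted p = 0.0175 by limma, lower in 4 of 4 pairs), and the call was lost without the TDAG8 pair at 4 h or at 12 h or the control pair at 12 h (adjusted p = 0.0564, 0.0822 and 0.0783). Ptgfr, with signals of 6.1 to 30.1, differed by -1.14 (SE 0.28, adjusted p = 0.0577 by limma), lower in 4 of 4 pairs without passing. Ptgdr at 0.56 and Tbxa2r at 0.38 lay above 0, but on low signals of 1.1 to 13.8 and 2.6 to 16.9. The median of the 4 receptors, -0.38 against -0.0026 over all genes tested, thus summarises values on both sides of 0.

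Of 6 tested genes of transport and breakdown, 1 fell and 0 rose. Abcc4, which encodes a transporter that carries prostaglandins and cyclic nucleotides out of cells, read 90.5 and 83.3 at pH 6.4 in TDAG8 cells, against 145 and 127 at pH 7.4. Control cells gave 85.6 and 53.4 at pH 6.4, against 158 and 152 at pH 7.4. The arrays before treatment, 172 in TDAG8 cells and 183 in control cells, were the highest. Abcc4 fell by 0.80 (SE 0.18, adjusted p = 0.0479 by limma, lower in 4 of 4 pairs). The call lay at the threshold: it was lost without any 1 of the 4 pairs (-0.89 to -0.61, adjusted p = 0.0979 to 0.120), with no filter (adjusted p = 0.109) and with a pseudocount of 0.6 (adjusted p = 0.0561). The median of the 6 genes was 0.13.

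Of 10 tested phospholipases A2 besides Pla2g4a, 0 passed, with a median pH difference of 0.15. The largest was that of Pla2g12a, a secreted enzyme, at 0.56 (SE 0.22, adjusted p = 0.146 by limma), with 103 and 151 at pH 6.4 against 67.9 and 78.8 at pH 7.4 in TDAG8 cells. In control cells Pla2g12a read 81.6 and 139 at pH 6.4, against 104 and 82.1 at pH 7.4, so the groups overlapped. Of 3 other prostanoid synthases 0 passed, with a median of 0.31. The largest was that of Ptgis, the prostacyclin synthase gene, at 0.54 (SE 0.21, adjusted p = 0.147), and 0.31 without the control pair at 12 h. The signal of Ptgis was 45.7 to 79.9 in TDAG8 cells and 18.6 to 44.9 in control cells, without overlap, and its line difference of 1.17 (SE 0.19, adjusted p = 0.0529) did not pass.

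Of 4 tested lipoxygenase and leukotriene genes 0 changed with pH, with a median of 0.20, and 1 was higher in TDAG8 cells. This was Alox5ap, the gene of the protein that presents arachidonic acid to 5-lipoxygenase, at 30.8 to 40.9 in TDAG8 cells and 10.1 to 21.0 in control cells, with no overlap. The line difference was 1.11 (SE 0.08, adjusted p = 0.00967 by limma, higher in 5 of 5 pairs). It no longer passed without the pair before treatment (adjusted p = 0.0543) or either pH 7.4 pair (adjusted p = 0.0671 at 4 h and 0.0546 at 12 h). The largest pH difference of that list, 0.86 (SE 0.55, adjusted p = 0.335) for Alox12e, rests on signals of 0.5 to 20.2. It was 0.54 to 1.17 with the other pseudocounts and 0.18 without the control pair at 4 h. At 4 h and 12 h it was 2.88 and 1.05 in control cells, but -0.45 and -0.05 in TDAG8 cells.

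**Figure D5:**
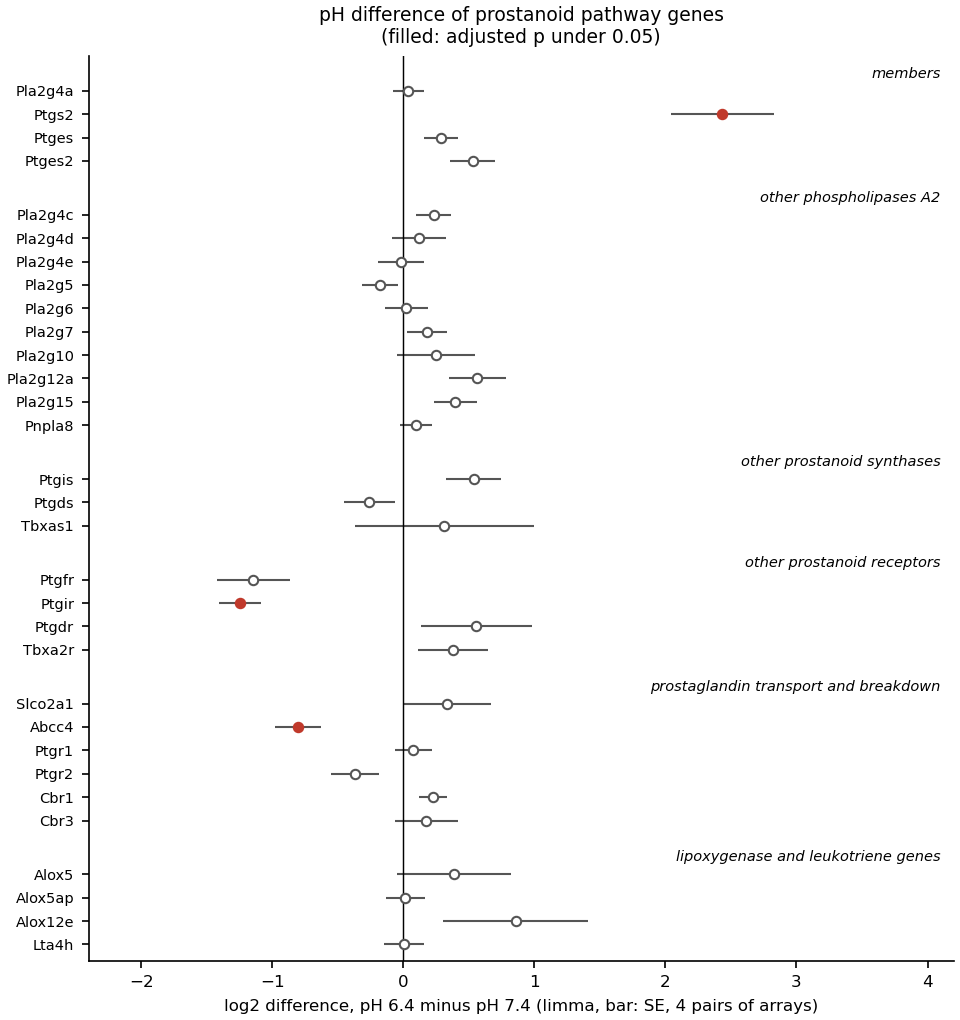
Log2 difference between pH 6.4 and pH 7.4 with its SE from the limma fit over 4 pairs of arrays, for the 4 tested members and 27 tested pathway genes; filled points passed at an adjusted p under 0.05. Ptgs2 stands at 2.43, the filled points of Ptgir and Abcc4 lie at -1.25 and -0.80, and all other points are open.

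Among genes outside the set, likeness to a member was ranked by the Pearson correlation of log2 values over the 10 arrays. The candidates were 5279 tested genes that spanned at least 1 on the log2 scale, with predicted and unnamed genes left out. Ptgs2 spanned 3.85. The 5 genes most like it were Rell1 (0.968), Hilpda (0.966), Snap25 (0.963), Ereg (0.962) and Pim3 (0.961). Hilpda encodes a lipid droplet protein, Snap25 a protein of vesicle fusion, Ereg the growth factor epiregulin and Pim3 a protein kinase. Hilpda read 262 and 229 at pH 6.4 in TDAG8 cells and 118 and 143 in control cells, against 44.0 to 63.3 on the 6 other arrays. The smaller range of Rell1 shows that likeness here is one of shape and not of size, with pH differences of 0.81 and 1.06 in TDAG8 cells and 0.37 and 0.81 in control cells.

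Ptges2 spanned 1.09, and the genes most like it were Pald1 (0.969), Rpf2 (0.966), Pithd1 (0.963), Usp37 (0.962) and Rad1 (0.952). Rpf2 encodes a factor of ribosome assembly, Usp37 a deubiquitinase and Rad1 a part of the DNA damage checkpoint clamp. Their pH differences were 0.93 to 1.31 at 12 h and -0.08 to 0.49 at 4 h over both lines. Pla2g4a and Ptges spanned 0.54 and 0.65 and were not ranked. Between members, Ptgs2 and Ptges2 correlated at 0.731, Ptges and Ptges2 at 0.710, and the other 4 pairs at 0.127 to 0.368, over 10 arrays that share their lines and media.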

How the data were processed

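Signal per probe set was deposited by the authors on a linear scale for 10 arrays, 1 per line and condition. Which software and summary made it is not stated in the labels. On each array the deposited signal had a 2% trimmed mean of 100 and a median of 11.7 to 13.8. Values were quantile normalised and taken as log2(signal + 2.4), a pseudocount at their 20th percentile. Of 45101 probe sets, 34945 had 1 symbol, 932 several, 9160 none and 64 were controls. The probe set with the highest mean stood for each gene, and 12161 genes, whose mean reached the probe sets' 40th percentile, were tested.

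limma 3.58.1 (R 4.3.3, lmFit and eBayes, Benjamini-Hochberg over all genes, adjusted p under 0.05) compared pH 6.4 with pH 7.4 over 4 pairs of arrays, blocked by line and time (3 residual degrees of freedom), and the lines over 5 pairs, blocked by condition (4). Within-line pH responses and their difference had 2 residual degrees of freedom, and 12 h against 4 h had 3. Conditions stand in for replicates, so p-values measure only the spread between matched differences, and the number of arrays limits the precision. The fits were tested on simulated data.

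The members and lists were chosen with earlier results of these data known. All members were named. Of the 5 pathway lists, genes that passed for pH, line or time, and the one with the largest pH difference per list, were named. Marker genes and the listed prostanoid receptor genes other than Ptgir fall outside this rule. The markers named, Ptgfr, Ptgdr and Tbxa2r were chosen after their values were seen. Of the pathway lists, Pla2g4b and Akr1b3 had no single-symbol probe set and are not analysed here.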

Additional observations from a re-analysis of the deposited data

Results flagged for a closer look

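Each item below is an effect whose values point one way on both array pairs of one condition and the other way on both of another. The rule looks at signs alone, so values near 0 count. How often other genes meet it was not counted. The line difference of Ptgs2 was above 0 at pH 6.4, by 1.76 at 4 h and 1.45 at 12 h, and below 0 at pH 7.4, by -0.03 and -0.31. The mean difference between the 2 was 1.78, and the limma test of it gave an adjusted p of 0.999861. For Ptges the line difference was above 0 at 12 h, by 0.40 at pH 6.4 and 0.01 at pH 7.4, and below 0 at 4 h, by -0.30 and -0.12, a mean difference of 0.41. For Ptges2 it was above 0 at 12 h, by 0.27 at pH 6.4 and 0.20 at pH 7.4, and below 0 at 4 h, by -0.19 and -0.14, a mean difference of 0.40. For Pla2g4a the pH difference was above 0 at 12 h, by 0.24 for TDAG8 cells and 0.01 for control cells. It was below 0 at 4 h, by -0.01 and -0.08, a mean difference of 0.17. In deposited signal the TDAG8 acid array at 4 h was the higher, at 689 against 666 at pH 7.4, so that sign holds only after normalisation. The differences of Ptges, Ptges2 and Pla2g4a between times were not tested.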

How the results depend on the processing

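All 4 members kept their side of the threshold in the line, time and interaction comparisons under every alternative run. The number of members called for pH, 1, was 0 with no filter, 2 with every probe set as a feature (Ptgs2 and Ptges) and 0 to 1 with 1 pair left out. The pH difference of Ptgs2 was 2.43 with no filter, where it missed the threshold, and 2.11 to 2.77 with 1 pair left out. With the replicate block removed, it was 2.43 (adjusted p = 0.00974) and the interaction 1.78 (adjusted p = 0.825). The adjusted p of Ptgs2 for pH ran from 0.0054 to 0.0916 over the alternatives.

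Signs turned only for values near 0 that did not pass. The line difference of Ptges (-0.02) was 0.022 with values as deposited and -0.12 to 0.052 with 1 pair left out. Its interaction (0.10) was -0.0017 with the mean of all probe sets and -0.14 to 0.34 with 1 pair left out, and its time difference (0.11) was -0.040 to 0.19. With 1 pair left out, Ptges2 gave -0.35 to 0.36 for the interaction (0.00), -0.030 to 0.085 between the lines (0.03) and -0.13 to 0.22 for time (0.05). The pH difference of Pla2g4a (0.04) was -0.027 to 0.080. The refits without a pair hold fewer arrays. The cause was not tested.

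The genes called for pH, 1220, numbered 241 unfiltered, 1919 when filtered at the 60th percentile, 2537 with every probe set, 2076 for a robust fit with a trend, 2281 without the block and 0 to 278 with 1 pair left out (0 without either 12 h pair, with 2894 and 2856 genes at an unadjusted p under 0.05). Those called between the lines, 146, numbered 9, 588, 67, 881 and 22 in the same settings, 89 with arrays centred on the median, 96 and 263 with pseudocounts of 0.6 and 7.6, and 4 to 28 with 1 pair left out. Single-array differences of the 4 members were counted for pH, for line, and for pH 7.4 at 12 h over before treatment. Of these, 6 of 44 reached 1 on the log2 scale, all of them for Ptgs2. They were its pH differences in both lines at both times and its line differences at pH 6.4. In those comparisons 2.84% to 5.95% of all genes tested lay at or past 1 as higher. Signal near background limits the receptors and Hpgd.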
